A study of Mus musculus with 18 samples.

Results

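Granzymes are serine proteases that cytotoxic lymphocytes store in secretory granules, and perforin forms the pores through which they reach the cytosol of a target cell. The genes described here were the 8 measured on these arrays that were chosen by name for this granule pathway, each by the probe set with its symbol in the platform annotation, out of 22206 probe sets. They were the granzymes Gzma, Gzmb, Gzmc, Gzmk and Gzmm, the pore former Prf1, the granule proteoglycan Srgn (serglycin) and the granzyme B inhibitor Serpinb9. All 8 had 1 probe set each, and their level in 6 groups and the effect of leukemic vesicles in each T-cell subset are given.

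The spleens that gave the T cells were those of Foxp3 YFP/Cre mice, in which the Foxp3 gene drives a YFP reporter and a Cre recombinase, so that YFP stands for Foxp3 expression. Regulatory T cells (Treg), CD8+ T cells and CD4+ conventional T cells (CD4+ Tconv) were each cultured for 24 h with IL2 at 10 ng/ml and small extracellular vesicles (sEVs), at 50 ug/ml per the labels. The sEVs came from the leukemic microenvironment of spleens of TCL1 mice with a high load of chronic lymphocytic leukemia (LME-sEVs), in which the TCL1 transgene is driven in B cells, or from the microenvironment of healthy control spleens (HCME-sEVs). Since the methods give amounts in terms of what a spleen of each type contained, it is not settled that both vesicles were dosed equally. There were 3 Clariom S mouse arrays for each of Treg, CD8+ T cells and CD4+ Tconv with LME-sEVs and 3 for each with HCME-sEVs, 18 arrays in all. Both measured CD8 markers were above background in CD8+ T cells, both CD4 markers in CD4+ Tconv and all 8 measured Treg markers in Treg. Foxp3 itself was not analysed here. Some markers were above background in other subsets too. These were 1 of 2 CD8 markers in Treg and in CD4+ Tconv and 1 of 2 CD4 markers in CD8+ T cells. Of the 8 Treg markers, 2 were above background in CD8+ T cells and 2 in CD4+ Tconv.

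A level is a log2 signal of 1 probe set. Signals of different genes depend on their probes, so levels are compared between groups and not between genes. Background was taken as the 95th percentile of the mean signal of 1429 olfactory, vomeronasal and trace amine receptor probe sets. These were assumed to be largely unexpressed in T cells. Background lay at 7.62 in Treg, 8.08 in CD8+ T cells and 8.80 in CD4+ Tconv. The CD4+ Tconv arrays with LME-sEVs had a narrow signal range, 0.73 to 1.15 log2 units between that percentile of the array and its upper decile, against 1.54 to 1.98 with HCME-sEVs. Among the Treg arrays HCME array 3 was unlike the rest, its mean correlation with them being 0.926 and its range 2.59, against 3.09 to 3.49 on the others. Precision is limited by the number of arrays. Separate animals or cultures are not named for the replicates in the labels, so a p-value here speaks only of the spread among these samples, possibly a technical one.

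Gzmb, which cleaves caspases and Bid in target cells and is the best studied of the family, lies beside Gzmc in a cluster of granzyme genes, and Gzmk, a trypsin-like granzyme of memory cells, lies beside Gzma, the trypsin-like granzyme of mature killer cells. Serglycin holds granzymes in the granule matrix, perforin lets them into the target, and Serpinb9 protects the cell that carries granzyme B. T-bet, Eomes and Runx3 are transcription factors that act on these genes in CD8+ T cells, and IL2 acts on them through STAT5.

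Promoter windows of the 4 genes in these pairs are shown because neighbours on a chromosome had unlike values in Treg. Each runs from 250 bases before to 50 bases after the start of a RefSeq gene on the minus strand of GRCm38.p6, read 5′ to 3′ along the gene. Capitals mark matches, on either strand, to 6 motifs named for factors of this pathway. The positions are chr14:56262285-56262584 for Gzmb, chr14:56234608-56234907 for Gzmc, chr13:113180916-113181215 for Gzmk and chr13:113100932-113101231 for Gzma.
Gzmb: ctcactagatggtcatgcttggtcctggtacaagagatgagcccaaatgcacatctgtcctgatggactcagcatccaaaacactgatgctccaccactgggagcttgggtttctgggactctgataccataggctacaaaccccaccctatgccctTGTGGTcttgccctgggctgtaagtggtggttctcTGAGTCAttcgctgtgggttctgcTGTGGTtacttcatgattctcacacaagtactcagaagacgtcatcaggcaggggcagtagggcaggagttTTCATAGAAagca
Gzmc: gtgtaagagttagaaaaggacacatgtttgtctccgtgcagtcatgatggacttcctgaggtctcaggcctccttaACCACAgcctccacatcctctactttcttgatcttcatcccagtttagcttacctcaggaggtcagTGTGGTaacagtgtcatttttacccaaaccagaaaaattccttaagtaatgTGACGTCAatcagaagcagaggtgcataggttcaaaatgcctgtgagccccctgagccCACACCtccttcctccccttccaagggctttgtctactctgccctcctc
Gzmk: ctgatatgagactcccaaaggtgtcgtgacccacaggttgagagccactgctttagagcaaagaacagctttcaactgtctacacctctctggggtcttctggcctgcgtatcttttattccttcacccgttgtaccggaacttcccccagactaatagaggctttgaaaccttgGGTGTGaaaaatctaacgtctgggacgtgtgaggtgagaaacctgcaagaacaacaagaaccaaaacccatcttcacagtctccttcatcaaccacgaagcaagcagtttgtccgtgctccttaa
Gzma: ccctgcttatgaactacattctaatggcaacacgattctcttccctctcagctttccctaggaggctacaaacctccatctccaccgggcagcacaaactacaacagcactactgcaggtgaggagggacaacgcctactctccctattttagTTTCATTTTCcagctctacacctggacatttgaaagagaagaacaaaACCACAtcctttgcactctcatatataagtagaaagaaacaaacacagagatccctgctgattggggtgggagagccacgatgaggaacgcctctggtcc

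The motifs were GAS, which STAT factors bind (TTCNNNGAA, in 8.3% of 32851 promoter windows), the ISRE core of IRF factors (GAAA, any 2 bases, GAAA, 3.44%), AP-1 (TGANTCA, 7.81%), CRE (TGACGTCA, 1.79%), RUNX (TGTGGT, 16.8%) and T-box (GGTGTG, 19%). None of the matches shown overlap. The Gzmb window held 4 matches, to RUNX beginning 93 and 34 bases before the start, to AP-1 at 58 bases before it and to GAS at 37 bases after it. The Gzmc window also held 4, namely 2 to RUNX, 1 to CRE and 1 to T-box, but none to AP-1 or GAS. In Gzmk the only match was a T-box one at 75 bases before the start, whereas Gzma had an ISRE core at 97 and a RUNX match at 50 bases before it. The 8 genes had 10 windows, as some genes have more than 1, and the shares above are per window. RUNX letters were in 7 of the 10 windows (7 of the 8 genes) and AP-1 letters in 1 of the 10 (1 of the 8). A match describes the letters and is not evidence of a bound factor.

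In Treg, Gzmb had log2 signals of 10.85, 10.74 and 10.92 with LME-sEVs, against 8.03, 8.76 and 8.66 with HCME-sEVs. All arrays of both groups were above the Treg background and the groups did not overlap. The mean was 10.84 ± 0.09 with LME-sEVs and 8.48 ± 0.40 with HCME-sEVs (SD, n = 3 each), a log2 difference of 2.35 (SE 0.26) or 5.11-fold. Its unadjusted p of 3.878e-05 was the second lowest and its difference the 44th highest of 22206 probe sets, but the adjusted p by limma was 0.4305, so that Gzmb did not pass the test. The study named Gzmb on these samples, so the RNA difference here is no independent evidence. It also reported more granzyme B protein in Treg, which these arrays do not measure.

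Gzmk gave 7.40, 8.04 and 6.77 in Treg with LME-sEVs, against 5.55, 5.54 and 5.98 with HCME-sEVs. The groups did not overlap, but 1 array alone reached background, and both means, 7.40 ± 0.64 with LME-sEVs and 5.69 ± 0.25 with HCME-sEVs (SD, n = 3 each), lay below it. No fold is given for that reason. Of the receptor probe sets 93.14% had a mean below that of Gzmk with LME-sEVs and 35.83% with HCME-sEVs, and limma gave a difference of 1.71 (SE 0.35, adjusted p = 0.7559). The study reported Gzmk as raised in Treg on these samples as well, a call that was not reproduced here either.

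The granule proteoglycan Srgn was far above background in Treg, at 13.82, 14.19 and 13.31 with LME-sEVs, against 13.34, 12.87 and 11.21 with HCME-sEVs. These groups overlapped, and the lowest value belonged to HCME array 3, the array unlike the others. The difference was 1.30 (SE 0.56, limma, adjusted p = 0.8004), and 0.67 (adjusted p = 0.7877) without that array. Gzmm, a granzyme with a preference for cleavage after methionine, had 8.24, 7.80 and 7.96 with LME-sEVs, against 7.45, 8.83 and 7.71 with HCME-sEVs, a difference of 0.00 (SE 0.38), with overlapping groups.

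Gzma, Gzmc, Prf1 and Serpinb9 had means below background in both Treg groups. Gzma, the neighbour of Gzmk, was at 7.18 ± 0.46 with LME-sEVs and 7.30 ± 0.46 with HCME-sEVs, and Gzmc, the neighbour of Gzmb, at 4.34 ± 0.24 and 4.79 ± 0.42 (SD, n = 3 each). Prf1 averaged 5.47 ± 0.35 with LME-sEVs and 5.81 ± 0.26 with HCME-sEVs, and all 6 arrays lay below background. At such signals a fall of Prf1 or Gzmc could not be read from these arrays, and no Treg array of either gene reached background. Serpinb9 averaged 6.82 ± 0.53 with LME-sEVs and 6.59 ± 0.22 with HCME-sEVs.

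Thus 0 of the 8 genes were called in Treg, where 0% of 22206 probe sets were called. A call required an adjusted p below 0.05 together with a log2 difference of more than 1 in either direction. The study reported a set of changed genes in Treg at these thresholds, which the fit here did not reproduce. Groups did not overlap for 2 of the 8, Gzmb and Gzmk, and for 12.2% of all probe sets. At an unadjusted p below 0.05 limma gave 1359 probe sets, or 6.12%, with these same 2 genes among them. The median difference of the 8 was 0.11 and that of all probe sets was -0.06.

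**Figure D1:**
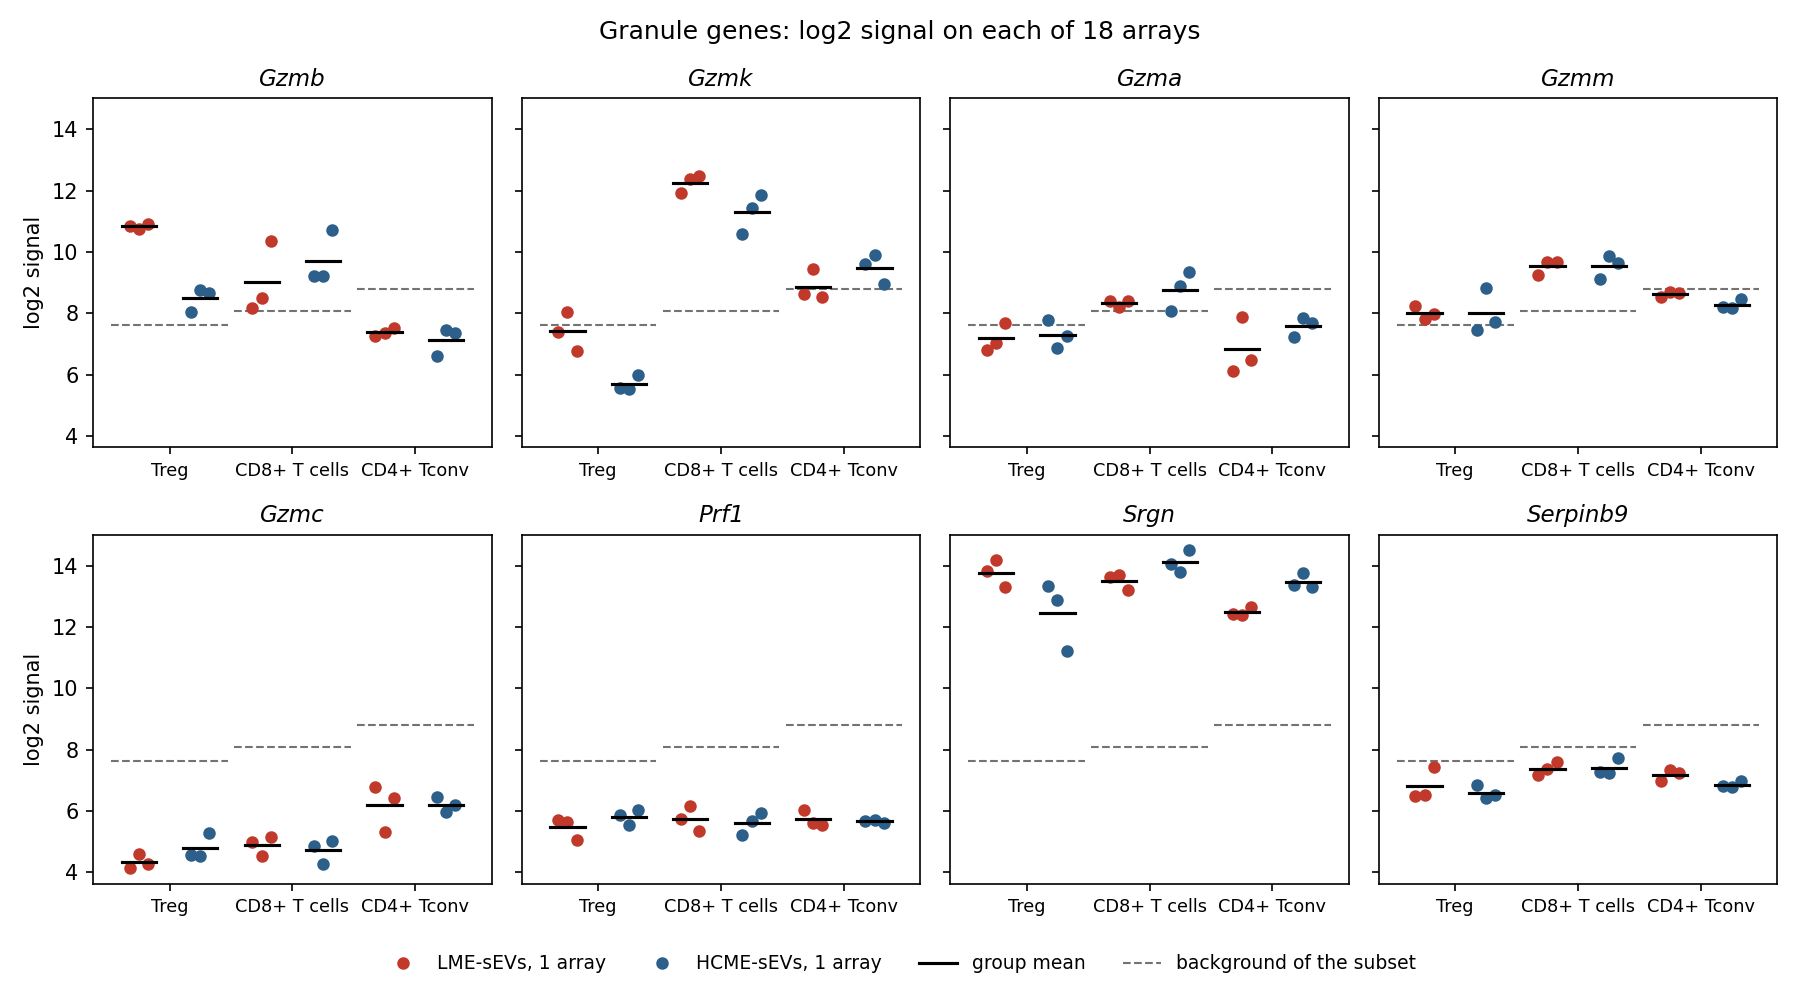
Log2 signal (vertical axis) of each of the 8 granule genes in Treg, CD8+ T cells and CD4+ Tconv, 1 point for each array, LME-sEVs in red left of HCME-sEVs in blue, with group means as black bars and the background of the subset dashed. Gzmb in Treg had 3 LME arrays between 10.74 and 10.92 and 3 HCME arrays between 8.03 and 8.76, while Prf1, Gzmc and Serpinb9 stayed below background in all 6 groups.

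Markers of other cells in the Treg arrays were set beside Gzmb and Gzmk, as both are made by CD8+ T cells and NK cells. The CD8 chain Cd8b1 averaged 10.25 ± 0.75 with LME-sEVs and 9.70 ± 0.50 with HCME-sEVs in Treg (SD, n = 3 each), a difference of 0.55 (SE 0.44, limma, adjusted p = 0.8446), while Cd8a was below background at 7.32 ± 0.60 and 7.28 ± 0.24. The log2 of the summed signal of both CD8 markers ran from 9.96 to 11.27 with LME-sEVs, against 9.55 to 10.44 with HCME-sEVs. Of 12 NK markers 2 were above background in Treg, their summed log2 signal was 9.86 to 10.23 with LME-sEVs, against 10.07 to 10.60 with HCME-sEVs, and the defining NK receptor Ncr1 was below background in both groups. Effector and memory CD8 markers, 12 measured and 6 above background, ran from 12.52 to 13.15 with LME-sEVs, against 11.68 to 12.92 with HCME-sEVs, and had a median difference of 0.16. The part of such cells in the Gzmb and Gzmk values was not tested. In sorted bulk samples, fewer cells of a type and less RNA per cell cannot be told apart. T-cell markers in general were also higher on the Treg arrays with LME-sEVs. The 4 measured had a median difference of 0.52 with 4 above 0, and 0 were called. Their summed log2 signal ran from 17.75 to 17.79 with LME-sEVs, against 16.76 to 17.70 with HCME-sEVs. The part of this shift in the Gzmb, Gzmk and Srgn values in Treg was not tested.

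In CD8+ T cells, 5 of the 8 genes were above background, namely Gzma, Gzmb, Gzmk, Gzmm and Srgn. Gzmk had signals of 11.93, 12.36 and 12.49 with LME-sEVs, against 10.58, 11.44 and 11.87 with HCME-sEVs, and the groups did not overlap, by a narrow margin. The difference was 0.96 (SE 0.35), or 1.95-fold, with an unadjusted p of 0.0302 and an adjusted p by limma of 0.9977. Without HCME array 1, the lowest of the 6, it was 0.61.

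Srgn in CD8+ T cells gave 13.63, 13.69 and 13.21 with LME-sEVs, against 14.06, 13.80 and 14.50 with HCME-sEVs. All LME arrays were below all HCME arrays, with a difference of -0.61 (SE 0.24, limma, adjusted p = 0.9977). Gzmb had 8.16, 8.51 and 10.37 with LME-sEVs, against 9.21, 9.20 and 10.72 with HCME-sEVs. Array 3 of each group was far above the other arrays of its group, the groups overlapped, and the difference of -0.70 (SE 0.67) had a 95% confidence interval from -2.31 to 0.91.

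Gzma signals in CD8+ T cells were 8.40, 8.20 and 8.40 with LME-sEVs, against 8.06, 8.90 and 9.34 with HCME-sEVs, close to the background of 8.08. Gzmm signals were 9.25, 9.68 and 9.67 with LME-sEVs, against 9.12, 9.87 and 9.64 with HCME-sEVs. Both genes had overlapping groups, with differences of -0.43 (SE 0.33) for Gzma and -0.01 (SE 0.25) for Gzmm. Prf1 was below background in CD8+ T cells too, at 5.74 ± 0.41 with LME-sEVs and 5.60 ± 0.36 with HCME-sEVs (SD, n = 3 each), as were Gzmc and Serpinb9. Of the 8 genes 0 were called in CD8+ T cells, where 0% of all probe sets were called and limma gave 936 at an unadjusted p below 0.05. Groups did not overlap for 2 of the 8 and for 8.59% of all probe sets.

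In CD4+ Tconv only Srgn and Gzmk reached background. Srgn had 12.44, 12.39 and 12.65 with LME-sEVs, against 13.37, 13.77 and 13.29 with HCME-sEVs, and the groups were well apart. The mean was 12.49 ± 0.14 with LME-sEVs and 13.48 ± 0.26 with HCME-sEVs (SD, n = 3 each), a difference of -0.98 (SE 0.21, limma, unadjusted p = 5.844e-04, adjusted p = 0.0505), which missed both thresholds of a call. Its difference was the 531st lowest of 22206. Other values moved the same way on these arrays: the 4 measured T-cell markers had a median difference of -0.75 with 0 of 4 above 0, and the summed log2 signal of these markers ran from 17.57 to 17.85 with LME-sEVs, against 18.05 to 18.19 with HCME-sEVs. The 1429 receptors, at background, had a median of 0.32, and probe sets above background had one of -0.32. The part of the narrower signal range of the LME arrays in the Srgn value was not tested, and with quantile normalization over all arrays the Srgn difference was -0.44 (adjusted p = 0.3393).

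Gzmk in CD4+ Tconv gave 8.63, 9.44 and 8.53 with LME-sEVs, against 9.60, 9.89 and 8.96 with HCME-sEVs, around the background of 8.80, with a difference of -0.62 (SE 0.30, limma, adjusted p = 0.2944). The groups overlapped. Gzmb was below background, at 7.27, 7.35 and 7.51 with LME-sEVs, against 6.61, 7.44 and 7.34 with HCME-sEVs. Gzma, Gzmm, Gzmc, Prf1 and Serpinb9 were also below background in both groups, and Gzmm alone among them had groups that did not overlap. Gzma was at 6.13, 7.89 and 6.48 with LME-sEVs, against 7.23, 7.83 and 7.69 with HCME-sEVs, and passed the test only when LME array 2, the highest of its group, was left out. In CD4+ Tconv 0 of the 8 genes were called, against 1.01% of all probe sets, and groups did not overlap for 2 of the 8 and for 23.4% of all probe sets.

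**Figure D2:**
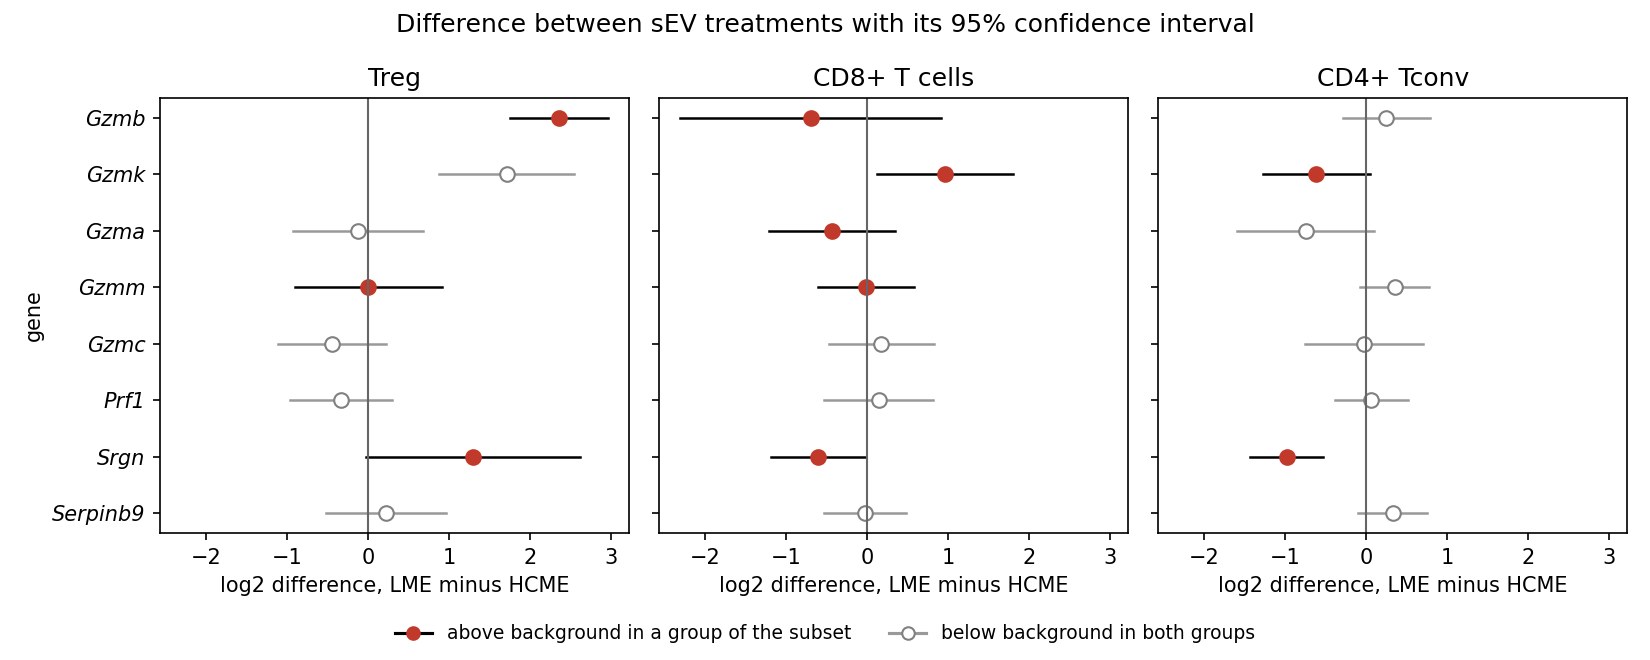
Log2 difference, LME minus HCME (horizontal axis), of the 8 genes in Treg, CD8+ T cells and CD4+ Tconv, with 95% confidence intervals from the limma fit of each subset, unadjusted for the number of probe sets. Filled points mark genes above background in a group of the subset, such as Gzmb in Treg at 2.35 and Srgn in CD4+ Tconv at -0.98, and open points mark genes below it in both.

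Whether the effect of LME-sEVs differed between subsets was tested as a difference of differences over 18 arrays. The Gzmb effect in Treg exceeded that in CD8+ T cells by 3.05 (SE 0.68, 95% confidence interval 1.60 to 4.50, limma, adjusted p = 0.1972), the 30th highest of 22206 probe sets, of which 0.00901% were called. Without CD8 LME array 3 the value was 3.73 (limma, adjusted p = 0.0199), so that 1 array decided whether it passed. That fit left out the high CD8 array with LME-sEVs (10.37) but kept the high one with HCME-sEVs (10.72). Against CD4+ Tconv, where Gzmb was below background, the Treg effect exceeded the other by 2.11 (SE 0.68, adjusted p = 0.1890).

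Srgn, which had differences of 1.30 in Treg, -0.61 in CD8+ T cells and -0.98 in CD4+ Tconv, differed by 1.91 (SE 0.57, adjusted p = 0.3837) between Treg and CD8+ T cells and by 2.28 (SE 0.57, adjusted p = 0.1198) between Treg and CD4+ Tconv. Without Treg HCME array 1 the contrast with CD4+ Tconv was 2.72 and passed, at an adjusted p of 0.0435. For Gzmk, with both Treg means below background, the contrast of Treg with CD4+ Tconv was 2.33 (SE 0.53, limma, adjusted p = 0.1047). That of CD8+ T cells with CD4+ Tconv was 1.58 (SE 0.53, limma, adjusted p = 0.6667). In these contrasts 0 of the 8 genes passed, and the share of all probe sets called was 0.0135% between Treg and CD4+ Tconv and 0% between CD8+ T cells and CD4+ Tconv. The contrasts share groups and are not independent of each other.

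The level of each gene was then set across subsets with the same vesicles. Arrays of Treg and CD8+ T cells share one run of numbers in the sample titles and those of CD4+ Tconv another, the labels do not say what is numbered, and joint normalization of the subsets is not stated, so subset and processing cannot be told apart. On the deposited scale the median of all probe sets was -0.45 for Treg minus CD8+ T cells with HCME-sEVs, 0.05 after quantile normalization and 0.51 with arrays centred on their median above background, and of the probe sets called 597 were higher and 4715 lower, 1585 higher and 1750 lower, and 4556 higher and 1427 lower in these 3 scalings.

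Gzmk separated the subsets most clearly. It was lower in Treg than in CD8+ T cells under both vesicles. On the deposited scale the fold was at least 22.5 with LME-sEVs (log2 difference -4.86, SE 0.37, limma, adjusted p = 1.634e-07). With HCME-sEVs it was at least 12.2 (-5.61, SE 0.37, limma, adjusted p = 3.493e-08). Here "at least" sets the CD8 mean against the background of the Treg arrays. Every such bound holds on the deposited scale only, and a rescaled difference can fall short of it. Under the other scalings these differences were -3.67 and -3.96 with LME-sEVs and -4.51 and -4.65 with HCME-sEVs, and all passed. Against CD4+ Tconv the measured log2 difference with LME-sEVs was -1.46 (limma, adjusted p = 0.0033). No fold is given for it, since Gzmk lay near background in both groups. Of the receptor probe sets 93.56% had a mean below that of Gzmk in CD4+ Tconv and 93.14% in Treg. With HCME-sEVs Gzmk was lower in Treg than in CD4+ Tconv at least 3.48-fold (-3.79, limma, adjusted p = 2.495e-06). After quantile normalization and with centred arrays these differences were -1.34 and -1.40 with LME-sEVs and -3.77 and -3.55 with HCME-sEVs, and all passed. Ordered from high to low, Gzmk was at 12.26 in CD8+ T cells with LME-sEVs and 11.30 with HCME-sEVs, 9.48 in CD4+ Tconv with HCME-sEVs, 8.87 in CD4+ Tconv with LME-sEVs, and then below background in Treg. The neighbours within CD8+ T cells and within CD4+ Tconv did not pass the test, while CD8+ T cells exceeded CD4+ Tconv by 3.39 with LME-sEVs, and by 2.33 after quantile normalization and 2.56 with centred arrays. With HCME-sEVs the difference was 1.81, which did not pass after quantile normalization (0.74, adjusted p = 0.1889) and passed with centred arrays at 1.10.

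Gzmb had a different order. Its highest mean was that of Treg with LME-sEVs at 10.84, followed by CD8+ T cells with HCME-sEVs at 9.71, CD8+ T cells with LME-sEVs at 9.01 and Treg with HCME-sEVs at 8.48, and it was below background in both CD4+ Tconv groups. With LME-sEVs Gzmb was higher in Treg than in CD8+ T cells by 1.82 (SE 0.48, limma, adjusted p = 0.0074), and by 2.30 and 2.72 under the other scalings, where it passed as well. With HCME-sEVs the difference had the other sign and did not pass, at -1.23 (SE 0.48, adjusted p = 0.0548), and at -0.26 and -0.27 under the other scalings. It passed without CD8 HCME array 1 (-1.48, adjusted p = 0.0473) or array 2 (-1.48, adjusted p = 0.0476). Treg exceeded CD4+ Tconv at least 3.25-fold with LME-sEVs (3.46, SE 0.48, adjusted p = 2.341e-05), and the log2 difference was 3.85 after quantile normalization and 3.52 with centred arrays. CD8+ T cells exceeded CD4+ Tconv at least 2.15-fold with HCME-sEVs (2.58, SE 0.48, adjusted p = 6.833e-04), and the log2 difference was 2.25 and 1.86 under the same other scalings, where it passed as well. For the other pairs with CD4+ Tconv the mean did not exceed the background of the CD4 arrays with the same vesicles, which for LME-sEVs lay above the subset's 8.80, so no fold is given, only the measured log2 difference. CD8+ T cells minus CD4+ Tconv with LME-sEVs was 1.64 (SE 0.48, adjusted p = 0.0106) and 1.55 after quantile normalization, and the call was lost with centred arrays (0.80, adjusted p = 0.1545) and without CD8 LME array 3 (0.96, adjusted p = 0.0594). Treg minus CD4+ Tconv with HCME-sEVs was 1.35 (SE 0.48, adjusted p = 0.0306), 1.99 after quantile normalization and 1.60 with centred arrays, and leaving out Treg HCME array 2 or 3 or CD4 HCME array 1 or 3 brought the adjusted p to between 0.0516 and 0.1188.

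Among neighbours in the Gzmb order, Treg with LME-sEVs and CD8+ T cells with HCME-sEVs differed by 1.13 (SE 0.48, adjusted p = 0.0725), and Treg with HCME-sEVs minus CD8+ T cells with LME-sEVs was -0.53 (adjusted p = 0.4013). Neither passed. Gzma was above background only in CD8+ T cells, and Gzmm was higher there than in Treg by more than 1 log2 unit under both vesicles (adjusted p = 8.630e-04 with LME-sEVs and 7.895e-04 with HCME-sEVs). With arrays rescaled these calls were lost, with Gzmm at -0.59 and -0.63 with LME-sEVs and at -0.62 and -0.59 with HCME-sEVs.

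The 6 group means of Srgn lay between 12.47 and 14.12. Treg minus CD8+ T cells was 0.26 with LME-sEVs and -1.65 with HCME-sEVs, and only the second passed on the deposited scale (limma, adjusted p = 0.0047). With arrays centred above background this turned round, as the LME difference was 1.16 and passed (adjusted p = 0.0249) and the HCME difference was -0.69 and did not (adjusted p = 0.1403). Treg minus CD4+ Tconv was 1.28 with LME-sEVs (adjusted p = 0.0121, and 0.7622 after quantile normalization, at 0.15) and -1.003 with HCME-sEVs (adjusted p = 0.0514). The difference with HCME-sEVs passed after quantile normalization (-1.38, adjusted p = 0.0066) and without Treg HCME array 1 (-1.44, adjusted p = 0.0095) or array 2 (-1.20, adjusted p = 0.0430). CD8+ T cells minus CD4+ Tconv was 1.02 with LME-sEVs (adjusted p = 0.0462), -0.56 after quantile normalization and 0.18 with centred arrays, so no direction is given.

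On the deposited scale, 4 of the 8 genes were called between Treg and CD8+ T cells with LME-sEVs (23.9% of all probe sets) and 4 with HCME-sEVs (23.9%). Between Treg and CD4+ Tconv 4 were called with LME-sEVs (41.6%) and 3 with HCME-sEVs (28.4%). Between CD8+ T cells and CD4+ Tconv 5 were called with LME-sEVs (32.9%) and 5 with HCME-sEVs (24.0%). Each count with CD4+ Tconv includes Gzmc, which was below background in both groups compared. No test set the 8 genes against all probe sets.

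The other genes of the granule pathway were counted from lists by role. Other granzymes (3 measured) had 0 called in any subset, and only Gzmf in Treg reached background, at 8.22 ± 0.47 with LME-sEVs and 8.10 ± 0.57 with HCME-sEVs (SD, n = 3 each). In the granzyme cluster on chromosome 14, where Gzmb had a difference of 2.35 in Treg, Gzmc was at -0.44, Gzmf at 0.12, Gzmn at -0.26 and Gzmg at -0.31, and Atp12a on the other side of Gzmb at -0.03. On chromosome 13 the genes flanking Gzmk were Gzma, at -0.12, and Esm1, at 0.06, both below background in Treg.

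Regulators of cytotoxic genes (25 measured, 13 above background in Treg) had a median difference of 0.40 in Treg, and 0 were called. The median of all probe sets was -0.06 and that of the 4 measured T-cell markers 0.52. Runx3, a factor of the CD8 lineage, had a difference of 2.58 (SE 1.08), with overlapping groups and an HCME mean below background. Stat5b, through which IL2 acts, was at 7.96 ± 0.28 with LME-sEVs and 6.66 ± 0.27 with HCME-sEVs (SD, n = 3 each), a difference of 1.30 (SE 0.25, limma, adjusted p = 0.7559), and its groups did not overlap. Its HCME mean lay below the Treg background of 7.62 and its LME mean little above it. Il2rb, the IL2 receptor beta chain, had 1.74 (SE 1.48), with an SD of 3.28 among HCME arrays. In CD8+ T cells the list had a median of -0.04 with 0 called, and Eomes was at 11.36 ± 0.55 with LME-sEVs and 12.12 ± 0.50 with HCME-sEVs.

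In CD4+ Tconv 1 of the 25 regulators was called, against 1.01% of all probe sets. This was Id2, a helix-loop-helix inhibitor of E-protein transcription factors, which fell to 12.23 ± 0.25 with LME-sEVs, against 13.42 ± 0.16 with HCME-sEVs (SD, n = 3 each), a difference of -1.19 (SE 0.21, limma, adjusted p = 0.0374). Id2 was called in 3 of 14 other settings. Its adjusted p was 0.1143 without LME array 1, 0.0656 without LME array 3, and 0.2284, 0.2229 and 0.0525 without HCME array 1, 2 and 3, and it was 0.1996 after quantile normalization, at a difference of -0.65. Runx3, whose LME mean lay below background, had -1.22 (SE 0.25, limma, adjusted p = 0.0501) and did not pass. Stat4, the transducer of IL12, had -0.80 (SE 0.29). The list's median was -0.16 and that of all probe sets 0.07, but only 7 of the 25 regulators were above background. Probe sets above background had a median of -0.32 in CD4+ Tconv, and the tenth with the highest mean signal -0.41. The part of this wider fall in the values of Id2 and of the other listed genes in CD4+ Tconv was not tested.

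Genes of granule transport and exocytosis (19 measured) had a median of 0.18 in Treg, 0.06 in CD8+ T cells and -0.07 in CD4+ Tconv, with 0 called. In Treg the vesicle SNARE Vamp7 had a difference of 0.99 (SE 0.28) with groups apart, Vamp8 1.29 (SE 0.62) and the syntaxin binding protein Stxbp2, which is needed for granule release, -1.66 (SE 0.88). In CD8+ T cells Coro1a, an actin regulator, was at 10.16 ± 0.40 with LME-sEVs and 8.41 ± 0.36 with HCME-sEVs (SD, n = 3 each), a difference of 1.75 (SE 0.28, limma, adjusted p = 0.5967). In CD4+ Tconv the late endosomal GTPase Rab7 had -1.26 (SE 0.34, adjusted p = 0.0925), Vamp8 -0.92 (SE 0.27) and the kinesin Kif5b -0.83 (SE 0.26), all with groups apart.

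Among genes of granzyme processing and sorting (11 measured, 0 called), Igf2r, a receptor for mannose 6-phosphate by which granzymes reach the granule and by which granzyme B can enter targets, was at 10.65 ± 0.43 with LME-sEVs and 8.75 ± 0.32 with HCME-sEVs in CD8+ T cells (SD, n = 3 each). The difference of 1.89 (SE 0.28, limma, adjusted p = 0.5531) had groups apart. Igf2r gave -0.43 (SE 0.67) in Treg and -0.67 (SE 0.33) in CD4+ Tconv, where its LME mean lay below background. Ctsc, the protease that activates granzymes, had -0.37 (SE 0.64) in CD8+ T cells. Other granule proteins and death ligands (11 measured) had 0 called in all 3 subsets. Nkg7, a granule membrane protein needed for degranulation, had -0.43 (SE 0.17) in CD8+ T cells and -0.78 (SE 0.21) in CD4+ Tconv, and Lamp1, the degranulation marker, -0.76 (SE 0.22) in CD4+ Tconv, each with groups apart.

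**Figure D3:**
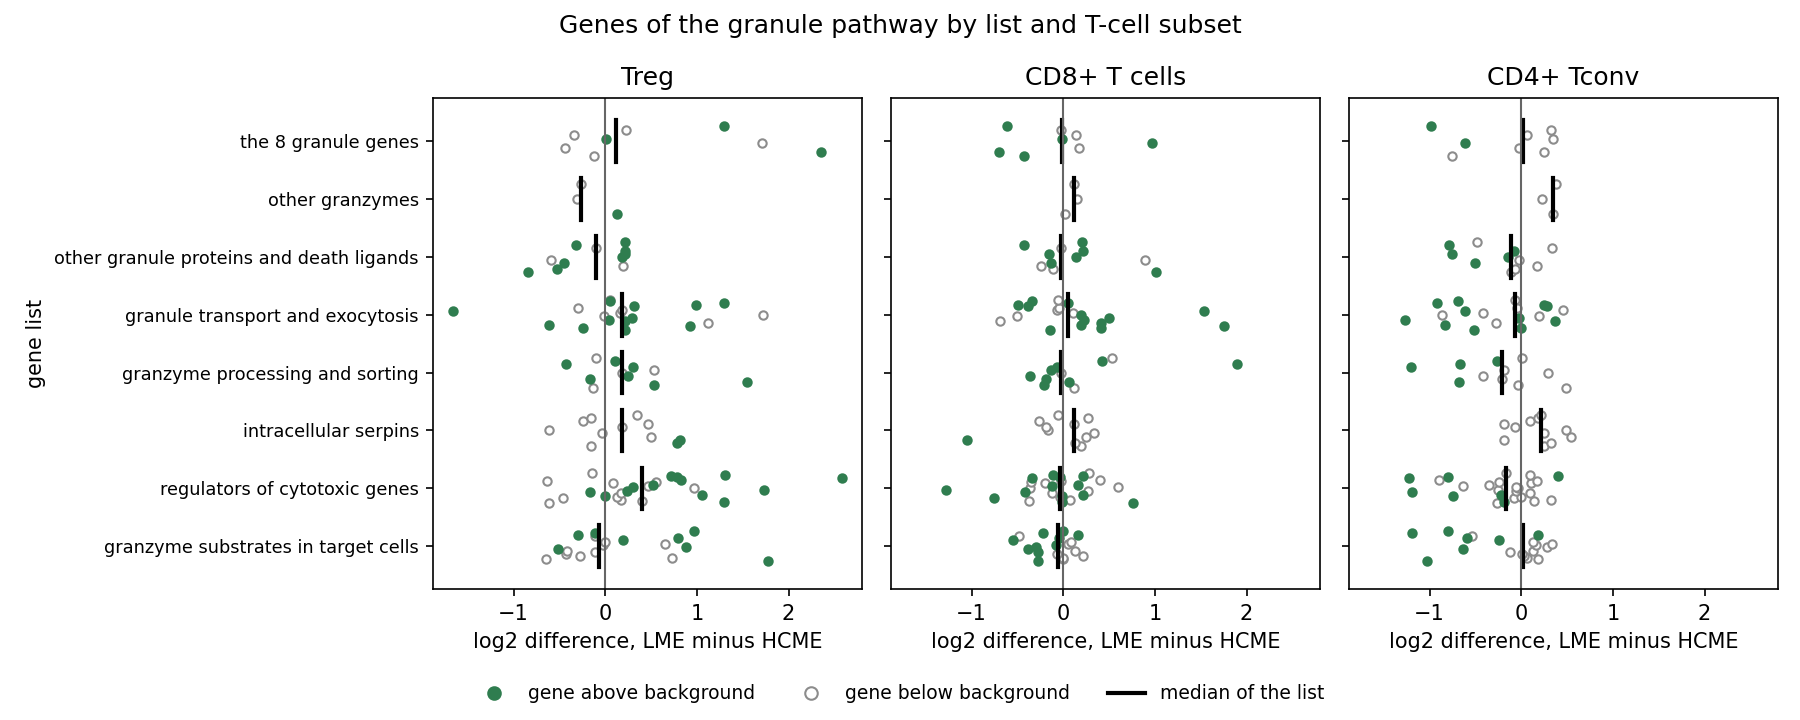
Log2 difference, LME minus HCME (horizontal axis), of the genes of 8 lists of the granule pathway in Treg, CD8+ T cells and CD4+ Tconv, 1 point for each gene, filled where it was above background, with the list's median as a bar. Regulators of cytotoxic genes had a median of 0.40 in Treg, -0.04 in CD8+ T cells and -0.16 in CD4+ Tconv.

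The last roles are inhibitors and targets. Intracellular serpins (11 measured) had medians of 0.18 in Treg, 0.11 in CD8+ T cells and 0.21 in CD4+ Tconv with 0 called, and 2 of them, 1 and 0 were above background in these subsets. Serpinb1a and Serpinb6a were those above background in Treg, with differences of 0.78 (SE 0.32) and 0.81 (SE 0.55), while Serpinb9, the inhibitor of granzyme B, was below background throughout. Proteins that granzymes cleave or bind in target cells (18 measured) had medians of -0.07 in Treg, -0.06 in CD8+ T cells and 0.02 in CD4+ Tconv, with 0 called. Anp32a, a subunit of the complex that granzyme A attacks, had 1.77 (SE 0.60) in Treg and -1.02 (SE 0.32) in CD4+ Tconv, and the co-chaperone Stip1 -1.19 (SE 0.26, limma, adjusted p = 0.0590) in CD4+ Tconv.

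Across the 18 arrays, after the mean of each subset was subtracted, the correlations between pairs of the 8 genes ran from -0.42 (Gzma with Gzmc) to 0.53 (Gzmb with Gzmk). The genes most like Gzmb were Commd6, Zscan2 and Dgcr6, each with r = 0.80, and those most like Gzmk were Ccng2 (0.89), 4833420G17Rik (0.86) and Rgs2 (0.83). For Srgn they were Cyba (0.95), a subunit of the phagocyte oxidase, Cuta (0.94) and Bscl2 (0.93). Zscan2 had a difference of 3.06 and Commd6 one of 0.84 in Treg. Arrays of a group and the scale of each array are shared by all points, so these values describe and are given no p.

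**Figure D4:**
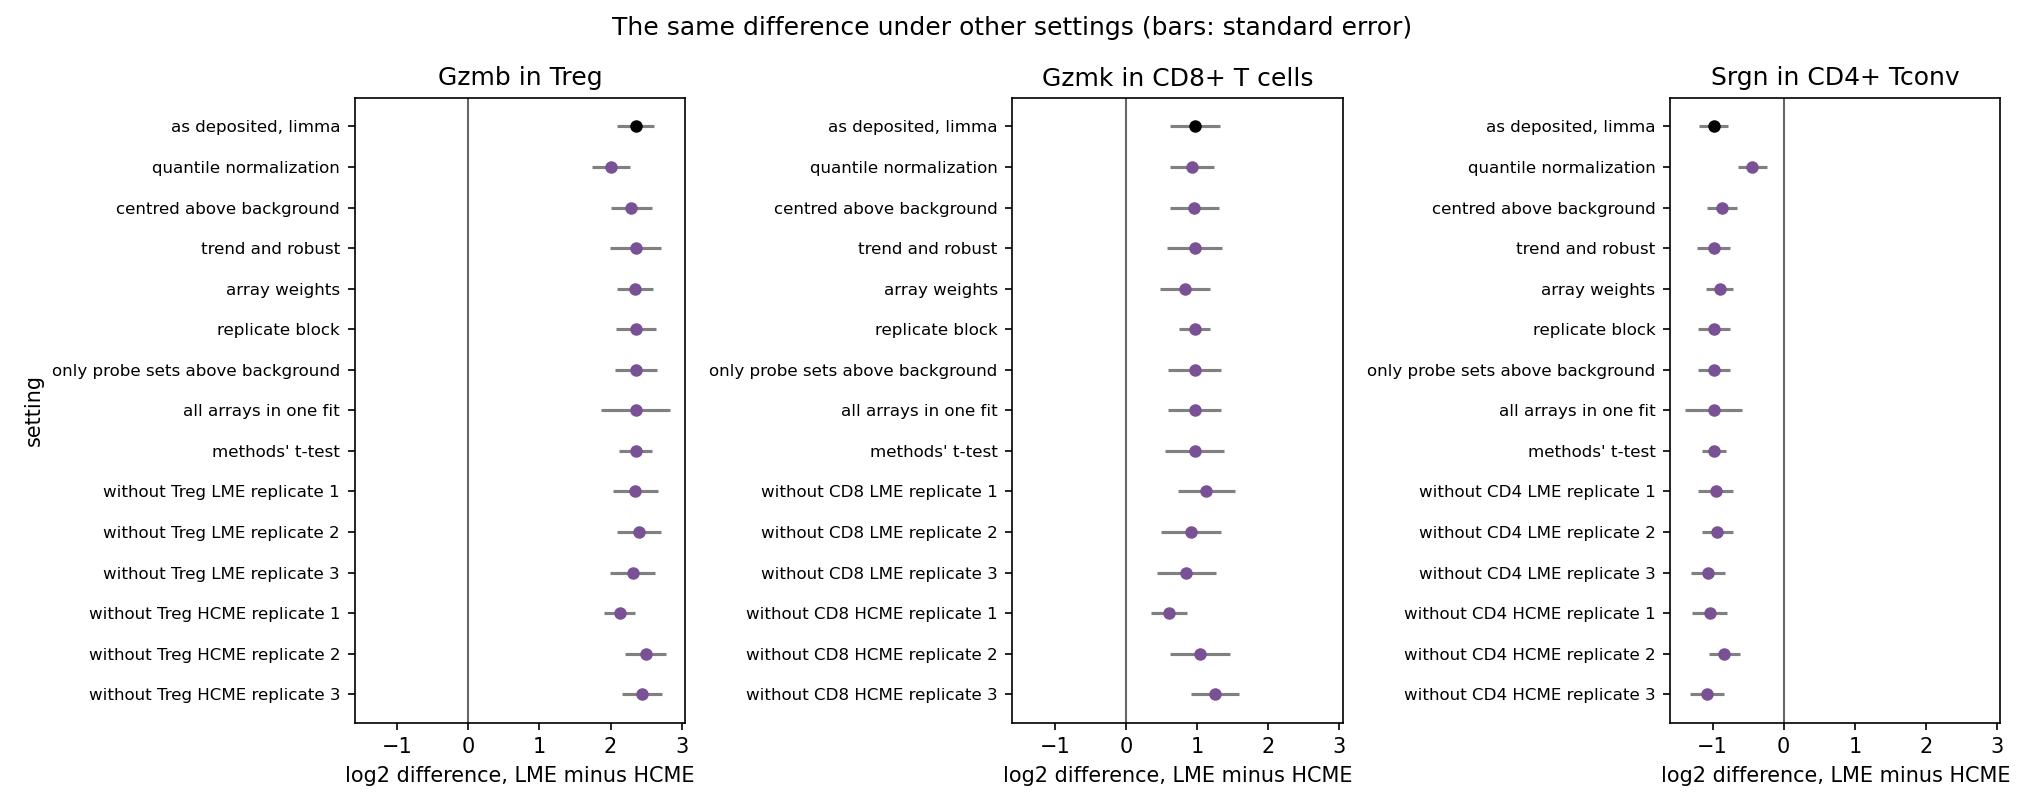
Log2 difference, LME minus HCME (horizontal axis, bars: standard error), of Gzmb in Treg, Gzmk in CD8+ T cells and Srgn in CD4+ Tconv under each setting tried (vertical axis). Gzmb stayed between 2.00 and 2.49, Gzmk between 0.61 and 1.25 and Srgn between -1.08 and -0.44.

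Over 14 other settings the Gzmb difference in Treg kept its sign, with an adjusted p from 0.0679 with all arrays in one fit to 0.9998 without LME array 2, and it passed in none. For Srgn in CD4+ Tconv the adjusted p ran from 0.0259 with array weights to 0.3640 with all arrays in one fit. It was below 0.05 also when only probe sets above background were tested (0.0300), where the difference of -0.98 stayed short of 1 log2 unit.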

How the data were processed

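RNA of 18 sorted T-cell samples was measured on Clariom S mouse arrays. The deposited values are log2 signals per probe set, which the authors made from the scans with the Transcriptome Analysis Console; the sources used here do not give the normalization method, the genome build or whether subsets were normalized together. The labelling kit named in the labels is not that of the methods. Groups came from the sample titles. Each subset (6 arrays) was fitted with limma 3.58.1 in R 4.3.3, with Benjamini-Hochberg adjustment over 22206 probe sets; a call needed both of the study's thresholds, adjusted p below 0.05 and a log2 difference of more than 1 either way. Contrasts between subsets used all 18 arrays, and differences of differences were called on the adjusted p alone. The fits were tested on simulated data. Of the probe sets 19572 had 1 symbol; a gene was read from its probe set with the highest mean.

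All 8 genes are named. Of each other list up to 3 genes per subset could be named, called ones first and then the largest differences among genes above background; Ctsc, Atp12a, Esm1, Zscan2 and single markers were named as context after their values were seen. The genes, lists and tests were chosen with earlier results of these data known. Some listed genes are not analysed here. Where 1 group was below background a fold is a bound on the deposited scale, set against the higher of each array's receptor percentile and the probe's own signal. Promoter windows and gene order came from RefSeq (GRCm38.p6), which had windows for all 8 genes. Alternatives were quantile normalization, centred arrays, trend and robust priors, array weights, a replicate block, a background filter, all arrays in one fit, the methods' t-test and leaving out each array.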

Additional observations from a re-analysis of the deposited data

How the results depend on the processing

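Counts of the 8 genes called between sEV treatments stayed at 0 in all 3 subsets under every alternative except 1 array left out: they ran from 0 to 1 in CD4+ Tconv (1 without LME array 2, Gzma, which was below background). For the effect in Treg minus that in CD8+ T cells the count ran from 0 to 1 (Gzmb without CD8 LME array 3), and minus that in CD4+ Tconv from 0 to 1 (Srgn without Treg HCME array 1). Levels across subsets depended on scaling. With quantile normalization 2 genes were called for Treg minus CD8+ T cells with LME-sEVs and 2 with HCME-sEVs, and 3 for CD8+ T cells minus CD4+ Tconv with LME-sEVs and 2 with HCME-sEVs; with centred arrays the last pair was 2 with LME-sEVs and 3 with HCME-sEVs, and with 1 array left out the count with LME-sEVs ran from 3 to 5. The sign of small differences turned. Gzmm in Treg was -0.06 with centred arrays, -0.18 with array weights and -0.27 to 0.42 with 1 array left out, and in CD8+ T cells -0.22 to 0.15. The Gzmm effect in Treg minus that in CD8+ T cells was -0.047, -0.11 and -0.26 to 0.43 under the same alternatives, and minus that in CD4+ Tconv -0.62 to 0.07. The Gzma effect in CD8+ T cells minus that in CD4+ Tconv ran from -0.037 to 0.84. After quantile normalization the Srgn effect in CD8+ T cells minus that in CD4+ Tconv was -0.26, Gzmm in Treg minus CD4+ Tconv with HCME-sEVs 0.14, and Srgn in CD8+ T cells minus CD4+ Tconv -0.56 with LME-sEVs and -0.30 with HCME-sEVs (-0.073 with centred arrays). The cause was not tested. Over all probe sets in CD4+ Tconv, 225 calls became 0 with quantile normalization, 34 with centred arrays, 49 with trend and robust priors, 475 with array weights, 376 with a background filter, 11 with all arrays in one fit and 0 by the methods' t-test. With 1 array left out they ran from 0 to 442, and were 0 without LME array 1, HCME array 1 or HCME array 2.

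Correlations of arrays with the same replicate number within a subset ran from -0.06 to 0.04 in Treg, 0.02 to 0.06 in CD8+ T cells and -0.12 to 0.16 in CD4+ Tconv. With 3 arrays per group these cannot settle whether the numbers pair the samples. With the number as a block 0 of the 8 genes were called for the sEV effect in each subset, and 2 of all probe sets in CD4+ Tconv. Of the counts across subsets, Treg minus CD8+ T cells with HCME-sEVs was 5 with Gzmb passing, and Treg minus CD4+ Tconv with HCME-sEVs was 4 with Srgn passing. Each array correlated best with its own number in 3, 4 and 2 of 6 arrays of Treg, CD8+ T cells and CD4+ Tconv.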
